A study of Homo sapiens with 2 samples.

Results

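Coagulation and fibrinolysis genes encode the proteins that form a fibrin clot, limit it and dissolve it, together with the enzymes and cargo receptors that make those proteins fit for secretion. The set was given as 38 gene symbols, and every one of them was found in both gene tables, among 57820 listed genes. The tables came from 2 human liver cancer lines, with 1 poly(A)-selected, stranded RNA-seq library of unmodified cells (genotype WT) per line and no treatment. HepG2 is labelled as hepatocellular carcinoma. SKHEP1 is labelled as endothelial cells, although both are called liver cancer cells in the growth protocol. Both lines grew in the same serum-containing medium. The stated aim of the series concerns PURPL, a long noncoding RNA of the p53 response, and the 2 lines were profiled for its expression and variants. A single library of a single line is a narrow model, and no difference given here has a replicate check or a test across samples.

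Clotting runs through a chain of secreted zymogens that activate each other at a cell surface until thrombin cuts fibrinogen into fibrin. The hepatocyte is the source of most of these plasma proteins, several of which need vitamin K to gain their calcium-binding residues. Endothelial and stromal cells contribute tissue factor, thrombomodulin, the protein C receptor and the plasminogen activators, which start, restrain or dissolve the clot.

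The libraries held 22477757 expected counts in HepG2 and 19940557 in SKHEP1, and 13418 and 13846 genes reached 10 counts. A count of 0 was set to a floor of 3 counts, which is 0.135 CPM in HepG2 and 0.148 CPM in SKHEP1. CPM here means counts-per-million of the TMM-scaled library. Levels of different genes are compared only as TPM (transcripts-per-million), which corrects for gene length. The labels were set against marker genes of other cell types. The 7 hepatocyte markers ALB, APOA1, APOB, TTR, TF, AHSG and HNF4A were present in HepG2 and at 0 counts in SKHEP1. Of 11 endothelial markers, 7 were under 10 counts in both lines, and the summed level of the 11 was 7.53 TPM in HepG2 and 65.0 TPM in SKHEP1. In SKHEP1 that sum came almost wholly from ENG at 53.3 TPM and ROBO4 at 10.3 TPM, while the defining genes CDH5 and KDR had 1 and 0 counts there. ESAM was higher in HepG2, with 144 counts against 16 in SKHEP1, and TIE1 was within 4-fold. The endothelial label of SKHEP1 therefore rested on few of its markers in these data. Of 6 mesenchymal markers, 4 were at least 4-fold higher in SKHEP1, with summed levels of 6.40 TPM in HepG2 and 6985 TPM in SKHEP1, of which VIM made up 6798 TPM in SKHEP1. Of the remaining mesenchymal markers, PDGFRB went the other way, with 183 counts in HepG2 and 103 in SKHEP1, and COL1A2 was under 10 counts. All 6 megakaryocyte and platelet markers were under 10 counts in both lines, with sums of 0.06 and 0.23 TPM. Of 6 macrophage and leukocyte markers, 3 were under 10 counts in both lines, and the summed level was 2087 TPM in HepG2 and 149 TPM in SKHEP1, mostly LYZ in HepG2 at 2020 TPM. The 7 hepatocyte markers and these 4 mesenchymal markers thus differed between the same 2 libraries as the genes below, and their part in the results was not tested.

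The coagulation genes differed in both directions, and 4 of the 7 roles held genes of either direction. Higher in HepG2 were the fibrinogen chains, FGL1, the factor XIII carrier, prothrombin, factors V, VII, X and XI, proteins C, S and Z, plasminogen and the carboxypeptidase CPB2. Higher in SKHEP1 were tissue factor, the protein C receptor, thrombomodulin, GAS6, TFPI2, short transcripts of the factor VIII gene and the plasminogen activators with the urokinase receptor. Of the 38 genes, 33 reached 10 counts in at least 1 line. Among these 33, 15 genes (45.5%) were at least 4-fold higher in HepG2, against 13% of the 15455 genes compared. In the other direction, 9 genes (27.3%) were at least 4-fold higher in SKHEP1, against 16.5% of all genes. The remaining 9 lay within 4-fold. The median log2 ratio of the 33 genes, HepG2 over SKHEP1, was 1.27, and that of all genes compared was -0.03. The median conceals a wide spread, since log2 ratios included -10.34 for PLAT and at least 12.98 for FGA. At least 1 count was found for 34 of the 38 genes in HepG2 and for 23 in SKHEP1. The genes together made up 4338 TPM, or 0.434% of all transcripts, in HepG2 and 2653 TPM, or 0.265%, in SKHEP1. In cell populations, fewer expressing cells and less RNA per cell cannot be told apart.

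**Figure D1:**
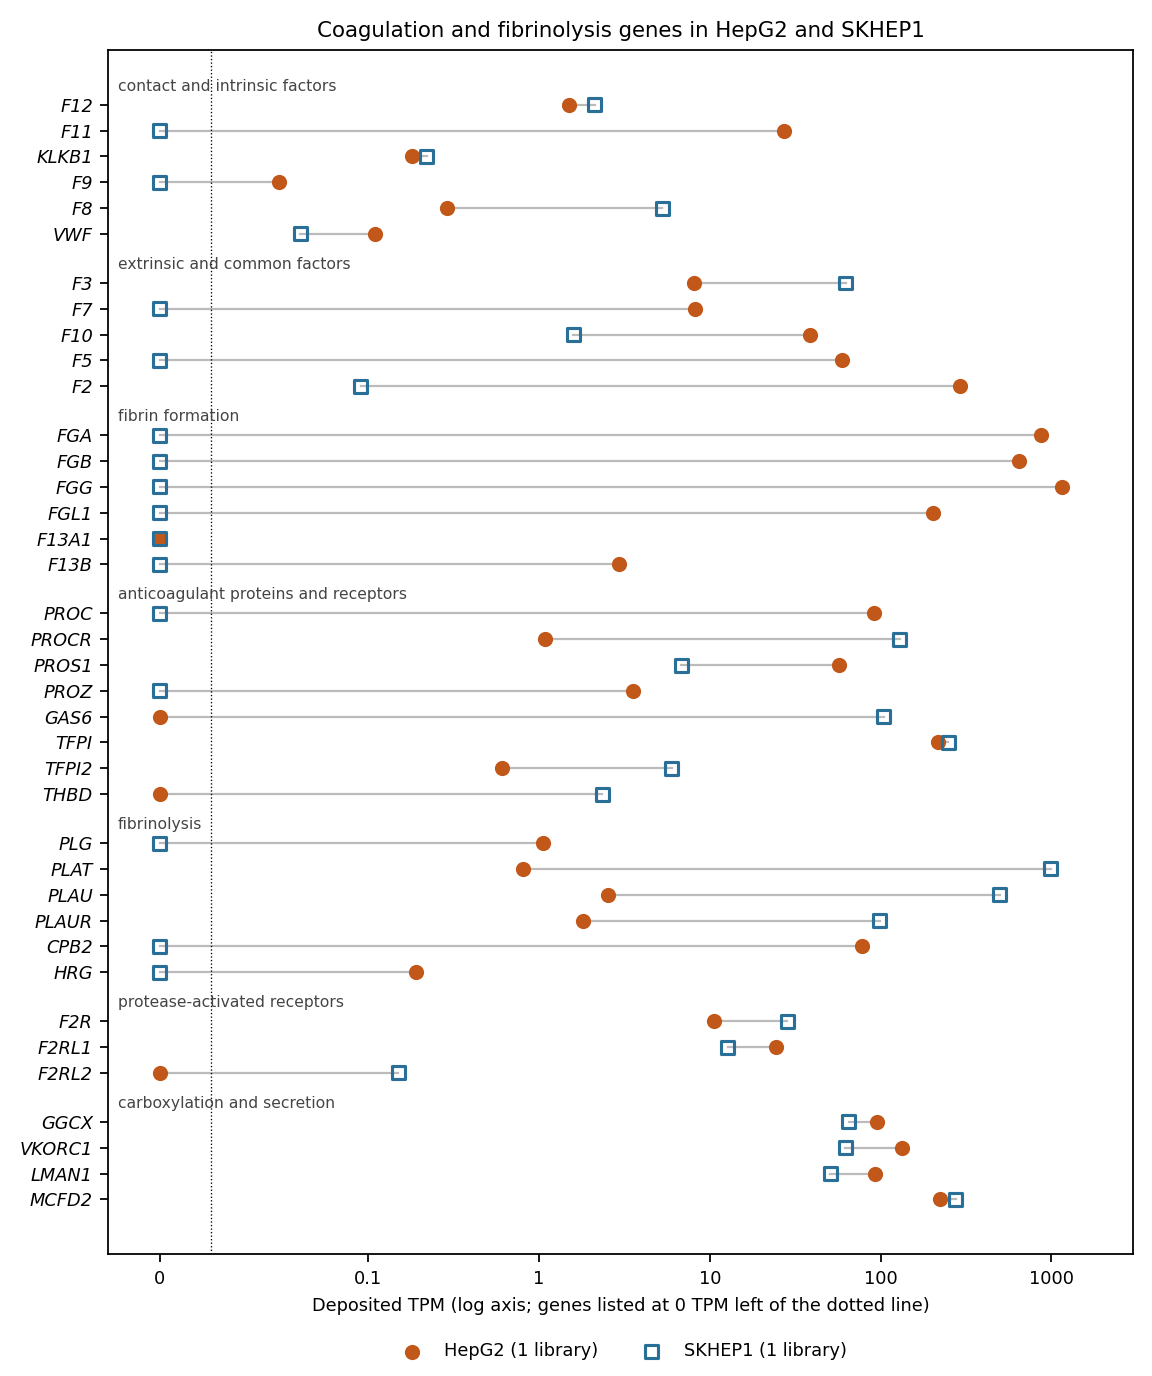
Deposited TPM (horizontal, log axis) of the 38 genes, ordered by role, in HepG2 (filled circles) and SKHEP1 (open squares), with 1 library per line and genes listed at 0 TPM left of the dotted line. The 3 fibrinogen chains lie between 642 and 1154 TPM in HepG2 and at 0 in SKHEP1, while PLAT and PLAU lie at 0.81 and 2.54 TPM in HepG2 and at 990.3 and 499.7 TPM in SKHEP1.

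**Figure D2:**
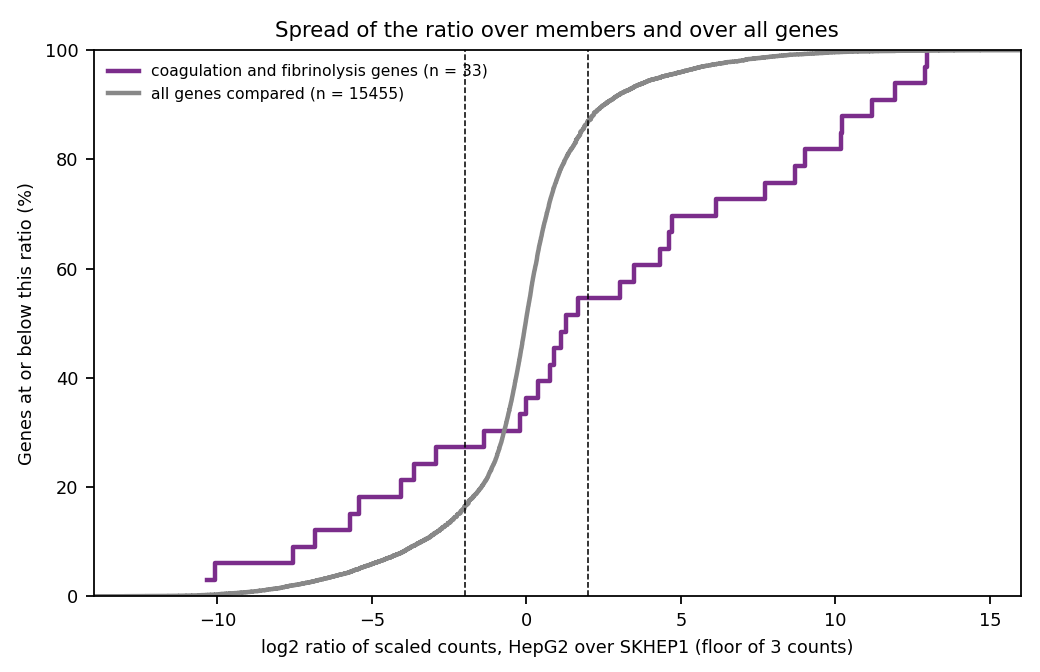
Percentage of genes (vertical) at or below each log2 ratio of scaled counts, HepG2 over SKHEP1 (horizontal), for the 33 coagulation and fibrinolysis genes and for all 15455 genes compared, with dashed lines at 4-fold. The steps of the 33 genes are spread to both sides of the lines, with 15 genes to the right and 9 to the left, whereas 10904 of all genes lie between the lines.

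The letters before the transcription starts were described for the same classes of genes. RefSeq promoter entries (GRCh38.p14) were at hand for 33 of the 38 genes, in 40 entries, and the 250 bases before each start were read. PLAT, THBD, FGL1, VWF and F2R had no entry. The entries of genes higher in SKHEP1 thus covered 7 of these 9 genes, and those of genes higher in HepG2 covered 14 of 15. In the 17 entries of the genes higher in HepG2, the CG dinucleotide occurred 0 to 9 times, with a median of 3. In the 9 entries of genes higher in SKHEP1 it occurred 1 to 34 times (median 20), and in the 9 entries of genes within 4-fold 1 to 28 times (median 21). Over all 35116 promoters of the table the median was 11, and 47.8% had no more than 9. The entries of the 5 genes under 10 counts had 1 to 4. Among genes higher in SKHEP1, entries of F3, F8, GAS6, PLAU and TFPI2 held 20 or more, PLAUR held 13 and PROCR 5, and the upstream entries of PLAU and F8 held 4 and 1.

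**Figure D3:**
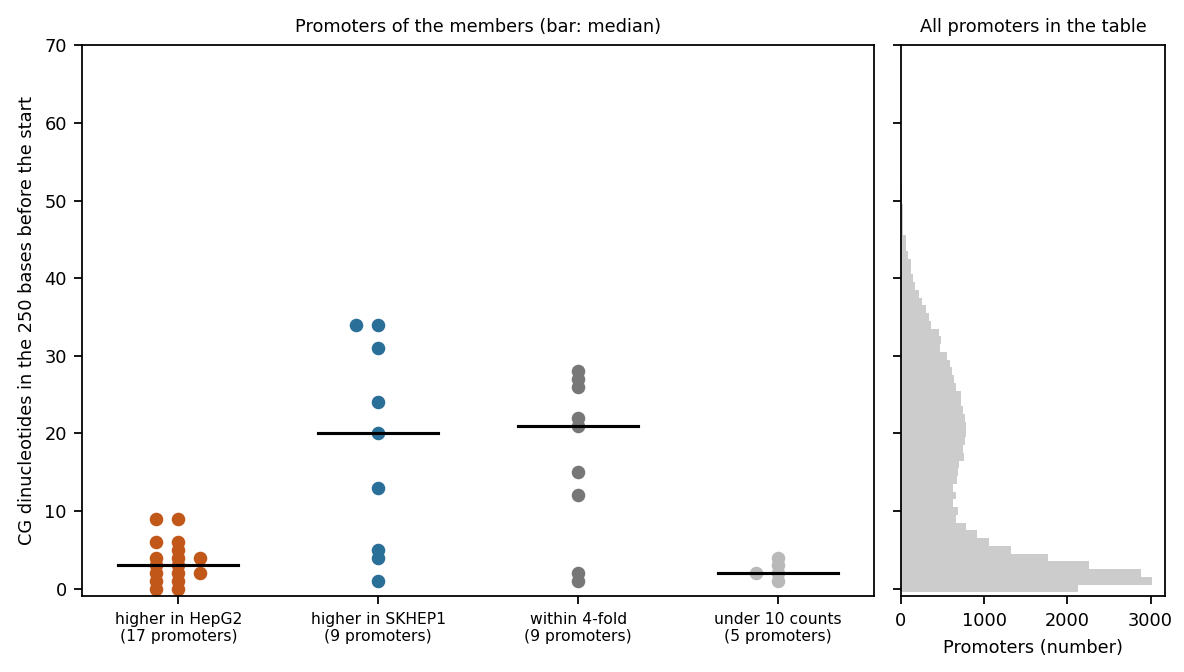
CG dinucleotides in the 250 bases before each RefSeq start (vertical), one point per promoter entry, by the class of the gene (left panel; bar, median), and the number of promoters at each value in the whole table (right panel). All 17 entries of genes higher in HepG2 lie at 9 or below, and the medians of the other classes with 10 or more counts are 20 and 21.

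Motifs of known regulators were searched on both strands in the same windows, with N standing for any base. TTGCNNAA, taken for C/EBP factors, was found in 5 of the 17 entries of genes higher in HepG2, in 2 of the 9 of genes higher in SKHEP1, and in 9.05% of all promoters. A pair of these 5 are overlapping FGB entries that share a match. CAAAGTCC, taken for HNF4, was in 1 of the 17 (PROZ), in 1 of the 9 (PLAU) and in 1.02% of all. TGANTCA, the AP-1 site, was in 0 of the 17, in 3 of the 9 (F3, PLAUR and TFPI2) and in 6.57% of all. GGGCGG, the SP1 core, was in 2 of the 17, in 6 of the 9 and in 42.6% of all. TATAAA was in 1 of the 17, in 2 of the 9 and in 10.7% of all. In the 9 entries of genes within 4-fold, GGGCGG was likewise in 6, and each of the other motifs named here was in 0. These 6 include alternative starts of MCFD2, beside entries of F2RL1, GGCX and LMAN1. The 6 entries of genes higher in SKHEP1 belong to different genes, F3, F8, PROCR, GAS6, TFPI2 and PLAU. The shares by entry are therefore not shares by gene, but GGGCGG also occurred in genes within 4-fold. In the 5 entries of genes under 10 counts, TGANTCA was in 1 (F2RL2), TTGCNNAA in 1 (KLKB1) and TATAAA in 1 (HRG). CAAAGTCC and GGGCGG were in 0 of these 5. Across the 40 entries, 0 matches of different motifs overlapped. A match is a run of letters and was not shown to be bound.

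The following promoters were picked as examples of CG-poor starts of genes higher in HepG2 and CG-rich or AP-1-bearing starts of genes higher in SKHEP1. They do not stand for every gene higher in SKHEP1, since PROCR held 5 CG dinucleotides and 0 AP-1 matches. Genes within 4-fold were as CG-rich, with a median of 21, and genes under 10 counts held 1 to 4. Each printed sequence runs 5′ to 3′ and ends at the base before the start, from the RefSeq table in GRCh38.p14. Capitals mark C/EBP letters in FGA and FGB, AP-1, SP1 and TATAAA letters in F3, SP1 letters in GAS6, and AP-1 and C/EBP letters in PLAUR.
FGA, chr4:154590743-154590992, minus strand: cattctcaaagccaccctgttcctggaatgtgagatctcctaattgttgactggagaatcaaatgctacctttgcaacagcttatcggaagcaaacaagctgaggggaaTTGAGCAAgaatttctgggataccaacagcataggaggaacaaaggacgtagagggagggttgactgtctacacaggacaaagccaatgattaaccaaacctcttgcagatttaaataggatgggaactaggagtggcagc
FGB, chr4:154562761-154563010, plus strand: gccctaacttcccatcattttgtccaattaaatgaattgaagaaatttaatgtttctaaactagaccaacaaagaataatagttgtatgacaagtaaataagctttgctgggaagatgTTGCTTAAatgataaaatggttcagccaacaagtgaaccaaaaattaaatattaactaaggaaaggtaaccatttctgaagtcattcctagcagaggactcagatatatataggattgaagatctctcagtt
F3, chr1:94541760-94542009, minus strand: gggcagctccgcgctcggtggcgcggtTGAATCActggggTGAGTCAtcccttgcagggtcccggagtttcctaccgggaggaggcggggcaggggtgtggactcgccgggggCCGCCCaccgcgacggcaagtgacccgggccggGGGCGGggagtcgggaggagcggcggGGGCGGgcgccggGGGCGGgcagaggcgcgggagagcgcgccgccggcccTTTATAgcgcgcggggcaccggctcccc
GAS6, chr13:113864077-113864326, minus strand: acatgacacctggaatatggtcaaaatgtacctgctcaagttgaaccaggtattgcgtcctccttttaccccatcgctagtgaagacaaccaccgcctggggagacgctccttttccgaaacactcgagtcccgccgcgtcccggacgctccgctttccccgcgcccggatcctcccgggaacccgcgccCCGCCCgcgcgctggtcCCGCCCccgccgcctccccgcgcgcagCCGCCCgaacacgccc
PLAUR, chr19:43670170-43670419, minus strand: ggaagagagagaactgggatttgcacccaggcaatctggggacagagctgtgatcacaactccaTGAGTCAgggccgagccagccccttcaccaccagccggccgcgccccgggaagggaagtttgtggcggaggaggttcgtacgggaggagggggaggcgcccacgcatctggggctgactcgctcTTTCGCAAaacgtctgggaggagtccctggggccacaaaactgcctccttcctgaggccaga
The C/EBP letters of FGA lie 141 to 134 bases before the start and those of FGB 132 to 125. FGB held 0 CG dinucleotides in this window and F3 held 34.

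In the contact and intrinsic pathway, F11 was the gene with a clear HepG2 level and F8 the gene with a SKHEP1 level. F11 encodes factor XI, which activates factor IX. It had 691 counts (27.2 TPM) in HepG2 and 0 counts in SKHEP1, and against a floor of 3 counts per library it was at least 209.8-fold higher in HepG2 (log2 7.71, or 7.04 with TPM). F8 encodes factor VIII, the cofactor of factor IX, and had 10 counts (0.29 TPM) in HepG2 and 152 counts (5.28 TPM) in SKHEP1. That is 16.7-fold higher in SKHEP1, with an exact 95% counting interval of 8.83 to 35.5. This interval and those below cover counting error alone and treat each read as a molecule, which PCR duplicates break. The F8 reads were assigned to transcripts shorter than the full factor VIII message. The isoform-weighted length that RSEM gave for F8 was 2620 bases in HepG2 and 2456 in SKHEP1, while the longest of its 5 listed transcripts measures 9059 bases in GENCODE release 29. The HepG2 value equals the length of a short listed transcript, ENST00000330287. RefSeq lists an upstream F8 start, with 1 CG dinucleotide before it, and a start far downstream, with 34. F12, the contact factor XII, had 40 counts in HepG2 and 28 in SKHEP1 (HepG2 over SKHEP1 1.30, interval 0.78 to 2.19). Its direction depended on the unit, since the TPM values were 1.49 in HepG2 and 2.12 in SKHEP1. The weighted length of F12 was 2049 bases in HepG2, that of its longest transcript, and 1233 bases in SKHEP1. VWF, the carrier of factor VIII and an endothelial and platelet protein, was near the limit of detection with 14 counts in HepG2 and 4 in SKHEP1 (ratio 3.19, 1.00 to 13.3). KLKB1, or plasma prekallikrein, showed 5 counts in HepG2 against 2 in SKHEP1, and F9, or factor IX, 1 against 0. These counts are too few for a comparison of either gene.

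Along the extrinsic and common pathway, the initiator tissue factor stood apart from the zymogens it acts with. F3 encodes tissue factor, the membrane receptor of factor VII. It had 228 counts (8.08 TPM) in HepG2 and 1579 counts (62.5 TPM) in SKHEP1, and was 7.60-fold higher in SKHEP1 (6.61 to 8.77). Its partner F7, the zymogen factor VII, had 231 counts (8.16 TPM) in HepG2 and no counts in SKHEP1, a difference of at least 70.1-fold (log2 6.13, or 5.45 with TPM). HepG2 thus held tissue factor and factor VII transcripts at nearly equal TPM, and SKHEP1 held the receptor without detected ligand transcripts. F10, factor X, had 704 counts (38.6 TPM) in HepG2 and 26 counts (1.58 TPM) in SKHEP1 (HepG2 over SKHEP1 24.7, interval 16.7 to 38). F5, the cofactor factor V, had 3911 counts (59.1 TPM) in HepG2 and no counts in SKHEP1, a difference of at least 1187-fold. Prothrombin is the precursor of thrombin, and its gene F2 was the most abundant of the 5, at 292 TPM in HepG2 and 0.09 TPM in SKHEP1. Its ratio of 6909, or 3242 in TPM, rested on 7586 counts in HepG2 and 1 count in SKHEP1, so the interval ran from 1240 to 272946. Within HepG2 the levels per length fell in the order F2, F5, F10, F7, with F2 at 7.56 times the TPM of F10 and F10 at 4.73 times that of F7. Of this role, 4 of 5 genes were higher in HepG2 and F3 in SKHEP1.

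Fibrin formation was the role with the highest levels in HepG2, and all 6 genes grouped under it were at 0 counts in SKHEP1. FGA (ENSG00000171560.10), FGB (ENSG00000171564.7) and FGG (ENSG00000171557.12) encode the alpha, beta and gamma chains, which assemble in equal numbers into fibrinogen. FGA had 26617 counts (866 TPM) in HepG2 and 0 in SKHEP1. FGB had 12767 counts (642 TPM) in HepG2 and 0 in SKHEP1. FGG had 25386 counts (1154 TPM) in HepG2 and 0 in SKHEP1. Against the floor they were at least 8081-fold, 3876-fold and 7707-fold higher in HepG2. With deposited TPM in place of scaled counts, the log2 fold against the floor fell to 11.16 for FGB and 12.27 for FGG, against 11.92 and 12.91. Both had 0 TPM in SKHEP1, and the floor in TPM used the lengths listed there without reads. The 3 chains were of like abundance within HepG2, with FGG at 1.80 and FGA at 1.35 times the TPM of FGB, and they held ranks 133, 172 and 205 among all genes by TPM. Together they gave 2663 TPM there, more than the other 35 coagulation genes combined. FGL1, a fibrinogen-related protein secreted by hepatocytes, is grouped here as a relative of fibrinogen. It had 3806 counts (202 TPM) in HepG2 and no counts in SKHEP1, a difference of at least 1156-fold. The cross-linking factor XIII has a catalytic and a carrier subunit. The carrier gene F13B had 86 counts (2.94 TPM) in HepG2 and no counts in SKHEP1, a difference of at least 26.1-fold (log2 4.71, or 3.92 with TPM). The catalytic gene F13A1, known from platelets and macrophages, was at 0 counts in both lines. Another transglutaminase of fibrin and matrix, TGM2, went the other way, with 462 counts (9.05 TPM) in HepG2 and 85253 counts (1774 TPM) in SKHEP1.

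The genes grouped here as anticoagulant proteins and receptors fell on both sides. Protein C and its plasma relatives PROS1 and PROZ were higher in HepG2. The receptors PROCR and THBD were higher in SKHEP1, together with the secreted proteins GAS6 and TFPI2, of which GAS6 is grouped here as a relative of protein S. PROC encodes protein C, which inactivates factors V and VIII once activated. It had 1374 counts (90.9 TPM) in HepG2 and no counts in SKHEP1, a difference of at least 417-fold. The receptor that presents protein C to thrombin, PROCR, had 18 counts (1.08 TPM) in HepG2 and 1899 counts (129 TPM) in SKHEP1, 116-fold higher in SKHEP1 (73.1 to 195.9). THBD, or thrombomodulin, which turns thrombin towards protein C, had 0 counts in HepG2 and 117 counts (2.35 TPM) in SKHEP1, at least 42.8-fold higher in SKHEP1. PROC was thus detected in HepG2 alone, PROCR mostly in SKHEP1, and THBD in SKHEP1 alone, at a low level. PROS1, the cofactor protein S, was found in both, with 2473 counts (56.9 TPM) in HepG2 and 277 counts (6.81 TPM) in SKHEP1 (HepG2 over SKHEP1 8.13, interval 7.18 to 9.24). PROZ, the cofactor protein Z, had 66 counts (3.54 TPM) in HepG2 and no counts in SKHEP1, a difference of at least 20.0-fold. GAS6, a relative of protein S that binds TAM receptors, had 0 counts in HepG2 and 2935 counts (104.5 TPM) in SKHEP1, at least 1074-fold higher in SKHEP1. In SKHEP1 the GAS6 level was 15.3 times that of PROS1 in TPM.

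TFPI, the inhibitor of tissue factor and factor X, was the member of this role with like levels in both lines. It had 4702 counts (218 TPM) in HepG2 and 4913 counts (248.5 TPM) in SKHEP1 (HepG2 over SKHEP1 0.87, interval 0.84 to 0.91), so the difference exceeded counting error but was small. Its relative TFPI2, a matrix-associated inhibitor of plasmin, had 15 counts (0.61 TPM) in HepG2 and 172 counts (6.0 TPM) in SKHEP1, 12.6-fold higher in SKHEP1 (7.42 to 23.0). Of the 8 vitamin K-dependent proteins of the set, 6 genes were higher in HepG2, GAS6 was higher in SKHEP1, and F9 was under 10 counts, against 13% of all genes higher in HepG2 and 16.5% in SKHEP1.

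The fibrinolysis genes showed the activators and their receptor in SKHEP1, while the zymogen and its inhibitor of clot lysis were in HepG2. PLAT (ENSG00000104368.13), tissue plasminogen activator, had 26 counts (0.81 TPM) in HepG2 and 30647 counts (990.3 TPM) in SKHEP1. It was 1294-fold higher in SKHEP1 (883 to 1981), and was the most abundant coagulation gene of that line, at rank 162 by TPM. PLAU (ENSG00000122861.11), urokinase, had 78 counts (2.54 TPM) in HepG2 and 13307 counts (499.7 TPM) in SKHEP1, 187-fold higher in SKHEP1 (150.0 to 237). PLAUR, the receptor that holds urokinase at the cell surface, had 33 counts (1.80 TPM) in HepG2 and 1589 counts (99.0 TPM) in SKHEP1, 52.9-fold higher in SKHEP1 (37.5 to 77.1). All 3 were thus detected in HepG2, at 0.81 to 2.54 TPM, rather than at 0. PLG, plasminogen itself, was low in HepG2, with 37 counts (1.06 TPM), and was at 0 in SKHEP1. Its ratio of at least 11.2 fell under 4-fold when TPM was used, at 1.91 on the log2 scale. As PLG had 0 TPM in SKHEP1, that value depended on a floor converted to TPM with the length listed there. The listed length was 1027 bases in SKHEP1, with no read behind it, and 2617 bases in HepG2. CPB2, a carboxypeptidase that protects fibrin from lysis, had 1697 counts (77.7 TPM) in HepG2 and no counts in SKHEP1, a difference of at least 515-fold. HRG, a plasma glycoprotein that binds plasminogen and heparin, had 5 counts in HepG2 and 0 in SKHEP1. The levels of the plasminogen activators therefore ran opposite to that of their substrate, with the activators in the line where no PLG read was counted.

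**Figure D4:**
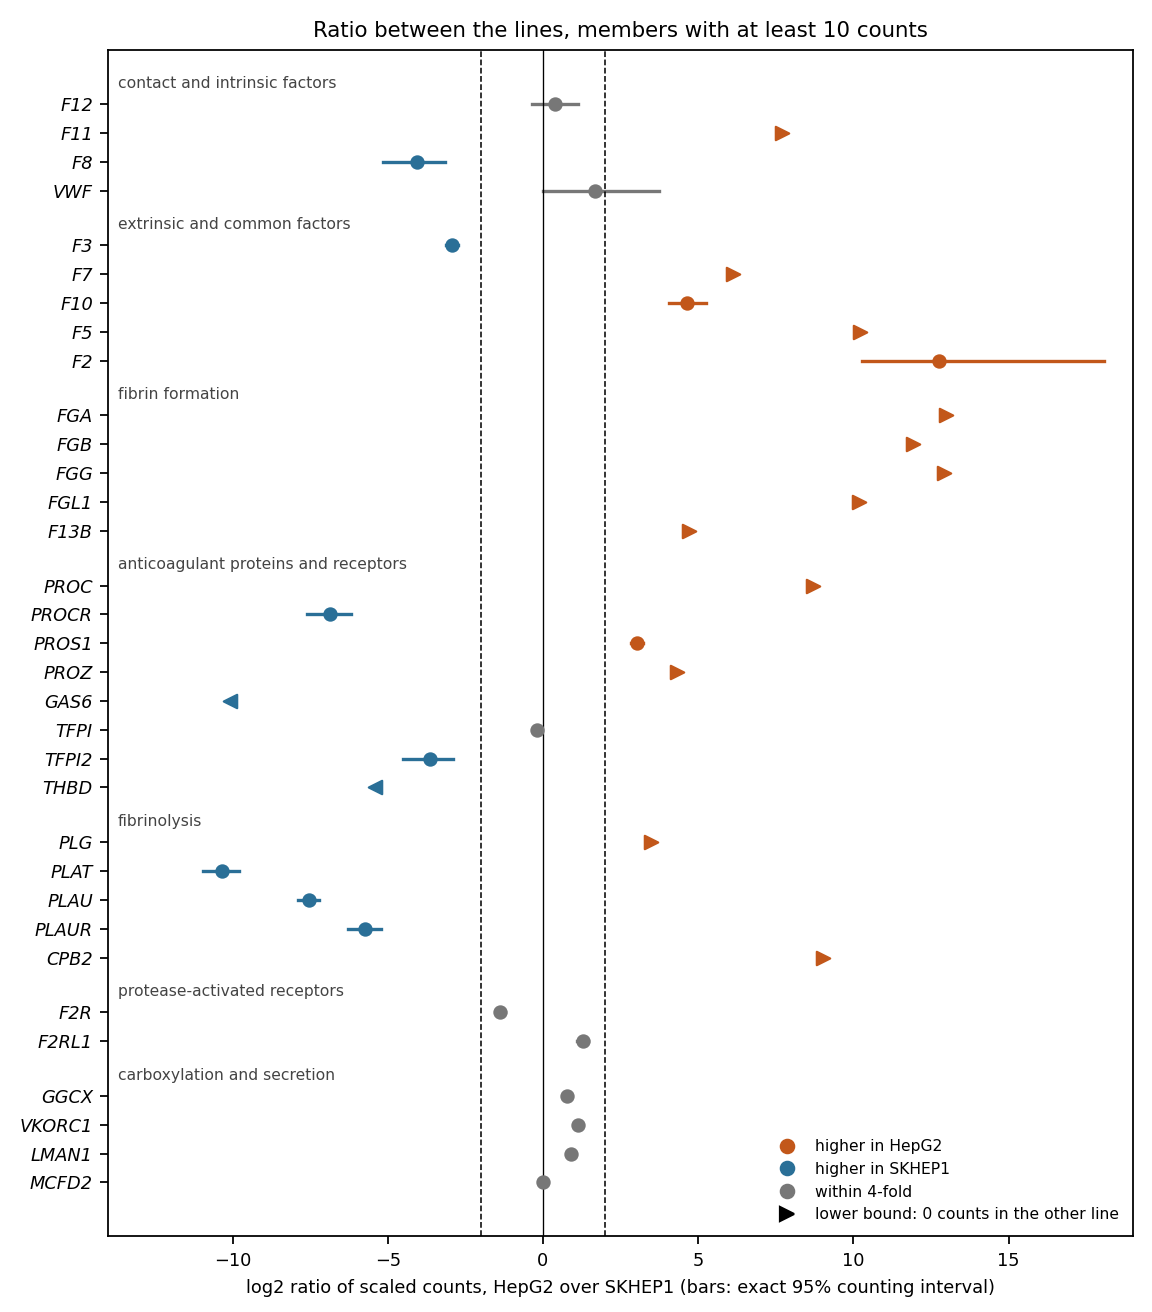
Log2 ratio of scaled counts, HepG2 over SKHEP1 (horizontal), of the 33 genes with at least 10 counts in a line, with bars for the exact 95% counting interval, arrowheads for lower bounds where the other line had 0 counts, and dashed lines at 4-fold. The 5 expressed genes grouped under fibrin formation lie to the right of the lines. PLAT, PLAU and PLAUR lie to the left, and the 4 carboxylation and secretion genes lie between the lines.

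The protease-activated receptors, through which thrombin and other proteases signal to cells, were represented in both lines by F2R and F2RL1. F2R, the main thrombin receptor PAR1, had 554 counts (10.6 TPM) in HepG2 and 1312 counts (28.4 TPM) in SKHEP1, 2.60-fold higher in SKHEP1 (2.35 to 2.88). F2RL1, or PAR2, which answers to trypsin and the tissue factor complex, had 943 counts (24.4 TPM) in HepG2 and 355 counts (12.7 TPM) in SKHEP1 (HepG2 over SKHEP1 2.42, interval 2.14 to 2.74). The order of these receptors by TPM was therefore opposite, with F2RL1 at 2.31 times F2R in HepG2 and F2R at 2.23 times F2RL1 in SKHEP1. F2RL2, or PAR3, showed no counts in HepG2 against 6 in SKHEP1, and F2RL3, or PAR4, was at 0 in both.

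The machinery of carboxylation and secretion was shared. GGCX, the vitamin K-dependent carboxylase, had 2912 counts (95.9 TPM) in HepG2 and 1558 counts (65.2 TPM) in SKHEP1 (HepG2 over SKHEP1 1.70, interval 1.60 to 1.81). VKORC1, the vitamin K epoxide reductase that warfarin blocks, had 1444 counts (134 TPM) in HepG2 and 600 counts (62.1 TPM) in SKHEP1 (HepG2 over SKHEP1 2.19, interval 1.99 to 2.42). LMAN1, the lectin that carries factors V and VIII out of the endoplasmic reticulum, had 7002 counts (93.2 TPM) in HepG2 and 3409 counts (50.7 TPM) in SKHEP1 (HepG2 over SKHEP1 1.87, interval 1.80 to 1.95). These 3 genes were thus higher in HepG2 by factors of 1.70 to 2.19. MCFD2, the partner of LMAN1, had 11199 counts (222 TPM) in HepG2 and 10273 counts (275 TPM) in SKHEP1 (HepG2 over SKHEP1 0.99, interval 0.97 to 1.02), and this ratio lay on either side of 1 depending on the scaling. In TPM, MCFD2 stood at 2.38 times LMAN1 in HepG2 and at 5.42 times LMAN1 in SKHEP1.

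Inhibitors and binding partners of the same pathways also differed in both directions. Of 20 such genes, 19 reached 10 counts, of which 9 were at least 4-fold higher in HepG2 and 7 were at least 4-fold higher in SKHEP1, against 13% and 16.5% of all genes compared. The other 3 lay within 4-fold, and the log2 ratio had a median of 1.26. Among the plasma inhibitors, antithrombin (SERPINC1) stood at 2753 counts in HepG2, with none in SKHEP1, and heparin cofactor II (SERPIND1) at 5846 in HepG2 against 23 in SKHEP1. SERPINF2, the plasmin inhibitor, stood at 7130 counts in HepG2 against 3 in SKHEP1, and SERPINA5, the protein C inhibitor, at 9221 against 2. A2M and APOH, abundant plasma proteins that bind proteases and phospholipid, reached 99125 and 53756 counts in HepG2, with none in SKHEP1. Other inhibitors of serine proteases went the other way. SERPINB2, an inhibitor of urokinase, stood at 6 counts in HepG2 against 1365 in SKHEP1, and SERPINE2, or protease nexin, at 677 against 8655. ANXA2 and S100A10, which together bind plasminogen and PLAT at the cell surface, were 40.5-fold and 13.3-fold higher in SKHEP1. The ANXA2 ratio was 22.0 in TPM, and ANXA2 has processed copies that can share its reads. THBS1, or thrombospondin 1, had 12546 counts in HepG2 and 212885 in SKHEP1. FURIN, which cleaves the propeptides of several of these factors, had 3149 counts in HepG2 and 1199 in SKHEP1 (ratio 2.39, 2.24 to 2.56). VKORC1L1, a relative of VKORC1, had 2179 counts in HepG2 and 2092 in SKHEP1 (0.95, 0.89 to 1.01). The other partners were under 1000 counts in both lines.

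Several of the genes sit next to each other, and the genes at the edges of those clusters served as a local comparison. On chromosome 4, FGB, FGA and FGG are neighbours, and PLRG1 beside FGB, a splicing factor, had 1502 counts in HepG2 and 1421 in SKHEP1 (HepG2 over SKHEP1 0.96, interval 0.89 to 1.04). LRAT on the side of FGG had 0 counts in HepG2 and 15 in SKHEP1. Neither gene at the edges of the fibrinogen cluster was higher in HepG2 beyond counting error. On chromosome 13, F7, F10 and PROZ adjoin each other, and PCID2 beyond PROZ had 1244 counts in HepG2 and 1414 in SKHEP1 (HepG2 over SKHEP1 0.80, interval 0.74 to 0.87). MCF2L on the side of F7, a guanine exchange factor gene, differed like the cluster, with 461 counts in HepG2 and 1 in SKHEP1. The KLKB1 and F11 pair on chromosome 4 was unequal, with 5 counts for KLKB1 and 691 for F11 in HepG2, and CYP4V2 beside KLKB1 had 127 counts in HepG2 and 151 in SKHEP1. The neighbouring gene past F11, listed as RP11-215A19.2, was at 0 in both lines.

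Isoform-weighted lengths were alike for most genes that both lines expressed. For the 9 genes with at least 100 counts in each library, the length in HepG2 divided by that in SKHEP1 ran from 0.95 for PROS1 to 1.20 for F2RL1. F2RL1 had 2869 bases in HepG2 and 2383 in SKHEP1, and MCFD2 had 3685 and 3128. For these genes the ratio in TPM differs from that in counts, as for F2RL1, whose TPM ratio was 1.92. Overlap with other genes limits some values, since the strand setting of the counting is not given in the sources used. Of the 38 genes, 9 overlapped another gene with at least 10 counts. GGCX overlaps MAT2A, with 4362 counts in HepG2 and 9775 in SKHEP1, and F12 overlaps GRK6, with 893 and 708. PROCR overlaps MMP24OS, which stood at 105 counts in HepG2 against 628 in SKHEP1, and F8 overlaps FUNDC2, with 664 and 933. The others were F2RL2, MCFD2, KLKB1, F10 and VKORC1. Copies of PROS1, PLG and VWF that could take reads were at 0 counts in HepG2, and in SKHEP1 at no more than the 4.34 expected counts of PLGLB1.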

How the data were processed

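RNA-seq gene tables of 1 HepG2 and 1 SKHEP1 library were used, with groups taken from the labels. The libraries were stranded mRNA preparations, per the labels' protocols. Cutadapt, STAR, RSEM, DESeq2 and the build hg19 are named in the submitters' processing notes. Their versions, the annotation and the strand setting are not given in the sources. The deposited tables hold RSEM expected counts and the TPM values the authors computed with them, per the file headers, beside isoform-weighted lengths.

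Expected counts were rounded and scaled by TMM with edgeR 4.0.16 in R 4.3.3 (factors 0.99 for HepG2 and 1.01 for SKHEP1). A gene was compared if its rounded count reached 10 in HepG2 or SKHEP1, and called higher in a line from 4-fold upwards. A count under 3 was set to a floor of 3 per library. A fold given as "at least" is against that floor and is not the bound of an interval. The 95% upper limit of 0 counts is 3.69, so the interval bound is smaller, as for F11 at 170. Where a library had 1 to 3 counts, the raw ratio is given with its interval. Ratio intervals are exact conditional Clopper-Pearson intervals at 95%. With 1 library per line, no difference was tested.

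All 38 genes are named. Partner genes are named at 1000 counts or more in either library, apart from F2RL3, and neighbours are the nearest protein-coding genes in GENCODE release 29, used for names, order and transcript lengths only. Members and lists were chosen with earlier results of these data known, and the motifs, F2RL3 and the closing receptors after values were seen. A partner gene, a marker gene and a motif are not reported here. Promoter sequences are from RefSeq (GRCh38.p14). Alternatives were total counts, DESeq2 1.42.0 size factors, deposited TPM, minimums of 1 and 50 counts, a prior count of 2, limits of 2-fold and 8-fold, and the interval bound in place of the ratio. The software was scipy 1.17.1, numpy 2.4.6, matplotlib 3.10.9 and pandas 2.3.3 under Python 3.11.15.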

Additional observations from a re-analysis of the deposited data

How the results depend on the processing

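With 1 library per line, depth and the counting interval are the only measures of precision, and genes under about 10 counts cannot be compared. The number of coagulation genes higher in HepG2 was 14 to 18 over the alternatives and the number higher in SKHEP1 was 8 to 10. With the prior count, total counts or DESeq2 size factors, all 33 genes kept their call. With TPM, 32 did, and PLG (1.91) fell within 4-fold. The folds against the floor of F7, F11, F13B, FGB and FGG also fell by more than 1.5 times with TPM. For these genes and PLG, the floor in TPM rested on the SKHEP1 length listed for a gene without reads. Direction changed for F12 with TPM (-0.51) and for MCFD2 with DESeq2 size factors (0.03), both within 4-fold. The median log2 ratio of the genes, 1.27, was 0.90 with a minimum of 1 count, since more genes near the floor enter. Over all genes, the number higher in HepG2 was 3619 at a 2-fold limit and 1258 at an 8-fold limit, and the number higher in SKHEP1 was 3869 at a 2-fold limit, against 2002 and 2549 at 4-fold. The scalings moved the median of all genes by at most 0.04 on the log2 scale. No paired analysis was possible because each line has 1 library.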

Other observations

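Receptors that bind or clear the proteins of this set, chosen after values were seen, also differed between the lines. AXL, the main TAM receptor for GAS6, had 91 counts (1.51 TPM) in HepG2 and 13167 counts (239 TPM) in SKHEP1, 159-fold higher in SKHEP1 (129 to 197.4), the line that also held the GAS6 transcripts. MERTK, a TAM receptor for protein S and GAS6, had 1009 counts (20.6 TPM) in HepG2 and 151 counts (3.66 TPM) in SKHEP1 (HepG2 over SKHEP1 6.09, interval 5.12 to 7.27), in the direction of PROS1. TYRO3 lay within 4-fold, with 838 counts (17.1 TPM) in HepG2 and 479 counts (10.8 TPM) in SKHEP1. LRP1, the endocytic receptor that clears plasminogen activators and factor VIII, had 6850 counts (39.6 TPM) in HepG2 and 3649 counts (24.9 TPM) in SKHEP1 (HepG2 over SKHEP1 1.71, interval 1.64 to 1.78). The asialoglycoprotein receptor genes ASGR1 and ASGR2, which remove desialylated plasma glycoproteins, had 4960 and 5475 counts in HepG2 and 7 and 0 counts in SKHEP1.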
